A study of Mus musculus with 16 samples.

Results

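The constitutive proteasome genes are the 34 mouse genes Psma1 to Psma7, Psmb1 to Psmb7, Psmc1 to Psmc6 and Psmd1 to Psmd14. They encode the subunits of the 20S core particle and the 19S cap, together with 3 chaperones that assemble the cap, and the inducible immunoproteasome subunits are not among them. The members were matched to probe sets by gene symbol. All 34 were measured, among 18193 genes in all: 7 of the 20S alpha ring, 7 of the 20S beta ring, 6 ATPases of the 19S cap, 11 other 19S subunits and the 3 assembly chaperones.

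The study measured messenger RNA on 16 single-channel arrays, in dendritic cells exposed to the probiotic gut bacterium Lactobacillus acidophilus, strain NCFM. Bone marrow of wild type C57BL/6 mice was grown with GM-CSF at 15 ng/ml, the growth factor that turns marrow precursors into dendritic cells. Non-adherent immature cells were taken on day 8, moved to medium with GM-CSF at 10 ng/ml, and given NCFM at 10 µg/ml for 4, 10 or 18 h. Control cells were cultured alike, without NCFM, for the same times. Each NCFM group holds 3 arrays, the 4 h control likewise 3, and the controls of 10 and 18 h 2 arrays each. The labels give neither the age of the mice nor whether the numbered arrays are separate animals or cultures. The p-values therefore measure the spread between these samples, which may be technical in part. In each group, however, an array differed from its partners in Xist and the Y-linked Eif2s3y, as described below. Xist had intensities of 245 to 369 on these arrays against 1999 to 7663, and Eif2s3y 896 to 1222 against 63 to 73. How much of the spread goes with this difference was not tested. The study's question was how NCFM changes gene expression in these cells at each time.

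The proteasome is the protease that destroys proteins marked with ubiquitin. Its core is a barrel of alpha and beta rings with the cutting sites inside the beta rings, and its cap binds ubiquitin chains, removes them, unfolds the protein with a ring of ATPases and feeds it into the barrel. In dendritic cells the peptides it makes are also the source of the antigens shown on MHC class I molecules, and inflammatory signals such as interferon gamma make cells exchange the 3 constitutive catalytic subunits for inducible ones.

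The promoters of 5 members are shown because the genes carry the results: Psmb6, Psmd11 and Psma5 rose, Psmd6 fell, and Psmb5 is a catalytic subunit that did not pass the test at any time. Each is the stretch of 150 bases before the gene's start, 5′ to 3′ on the gene's strand, from the RefSeq promoter table of GRCm38.p6. Capitals mark a match to TGACNNNGC, the core of the antioxidant response element, which is the motif bound by the transcription factors Nfe2l1 and Nfe2l2. Psmb6 lies at chr11:70525207-70525356 on the plus strand, Psmb5 at chr14:54617996-54618145 on the minus strand, Psma5 at chr3:108256776-108256925 on the plus strand, Psmd11 at chr11:80428465-80428614 on the plus strand and Psmd6 at chr14:14120946-14121095 on the minus strand.
Psmb6: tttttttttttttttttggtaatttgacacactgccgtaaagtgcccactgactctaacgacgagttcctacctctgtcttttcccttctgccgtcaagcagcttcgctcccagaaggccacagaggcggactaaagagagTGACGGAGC
Psmb5: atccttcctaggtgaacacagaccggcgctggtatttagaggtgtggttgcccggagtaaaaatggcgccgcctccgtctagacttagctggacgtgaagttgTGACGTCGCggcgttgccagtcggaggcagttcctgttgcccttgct
Psma5: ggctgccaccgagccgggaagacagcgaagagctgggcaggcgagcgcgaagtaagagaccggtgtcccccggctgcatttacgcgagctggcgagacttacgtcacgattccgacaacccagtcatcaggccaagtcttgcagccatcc
Psmd11: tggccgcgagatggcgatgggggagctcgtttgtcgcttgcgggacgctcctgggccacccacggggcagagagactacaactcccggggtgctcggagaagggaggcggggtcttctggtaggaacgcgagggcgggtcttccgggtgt
Psmd6: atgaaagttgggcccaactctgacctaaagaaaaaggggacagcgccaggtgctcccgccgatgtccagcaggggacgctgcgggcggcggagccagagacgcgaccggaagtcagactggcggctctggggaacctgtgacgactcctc

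The motif ended directly at the start of Psmb6, with its first base at position -9, and began at position -47 in Psmb5, counted back from the gene's start. It was not among the letters of the other 3 windows. Over the full windows of the table, 250 bases before to 50 after a start and read on both strands, TGACNNNGC was present in 5 of 30 member windows (16.7%) and in 12.4% of all 32851 windows. The 5 belong to Psmb5, Psmb6, Psmc6, Psmd9 and Psmd12. GGGCGG, the GC box, was in 18 of 30 member windows (60.0%) against 35.7% of all, and CCAAT in 11 of 30 (36.7%) against 37.4%. The table held windows for 28 of the 34 members, and Psmb1, Psmb2, Psmb7, Psmc3, Psmd3 and Psmd7 were not matched. Of the 9 members that rose at 18 h, 8 had a window and 2 of these, Psmb6 and Psmc6, held TGACNNNGC, as did 3 of the 19 members with a window that did not pass the test at 18 h. A match is a description of letters, and no binding was measured.

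Some arrays stood apart, in ways that touch the members. In each group the array numbered 1 differed from its partners. Xist, the RNA of the inactive X chromosome, had intensities of 245 to 369 on the 6 arrays numbered 1 and 1999 to 7663 on the other 10 arrays, and the Y-linked Eif2s3y had 896 to 1222 against 63 to 73. On the arrays numbered 1, 31 of the 34 members were higher than on their partners (mean over the 6 groups, median 0.16 on the log2 scale, from -0.32 for Psmd10 to 0.42 for Psmc4). The share over all genes was not computed, so that this cannot be called particular to the members. Number 1 arrays are 1 of 2 arrays in the 10 and 18 h controls and 1 of 3 in the other groups. NCFM 4 h array 3 also differed: its 20S beta ring genes lay lower than on its partners by a median difference of -0.56 and its alpha ring genes by -0.32. For that reason values for equal array numbers, a fit with the array number as a block, and counts on arrays 2 and 3 alone are given beside the results.

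The arrays also carried markers of several cell types. Of 8 dendritic cell markers, Cd74 (19181 to 24211), H2-Ab1 (11292 to 15511), Ccr7 (2721 to 9979) and Itgax (1654 to 5478) were the brightest. Zbtb46 (306 to 955), Ciita (383 to 858), Dpp4 (218 to 1042) and Flt3 (307 to 427) were dimmer, though above the median of an array (162 to 167) on all 16 arrays. The 8 summed to 36949 to 46817 on the NCFM arrays at 18 h and 46816 to 48538 on the controls, and 3 of them were called lower there (median log2 change -0.22). By comparison 4 B cell markers summed to 597 to 716 and 5 T and NK cell markers to 750 to 853. Neutrophil markers were present, their 7 genes summing to 5556 to 16953 on the NCFM arrays at 18 h and 22751 to 25519 on the controls, with 1 of the 7 called lower. The 7 macrophage markers summed to 26579 to 47153 against 41052 to 59342, and the 5 genes of dividing cells to 1703 to 1789 against 1851 to 6337. The part of these cell types in the changes below was not tested. A change in the share of a cell type cannot be told apart from a change of RNA per cell.

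The median change of the 34 genes was small, and single genes moved in both directions. A gene was called when its two-sided p from limma, adjusted over all 18193 genes by Benjamini and Hochberg, was under 0.05. At 4 h no member was called higher and 1, Psmb1, was called lower, where 5.27% of all genes were called higher and 13.1% lower. At an unadjusted limma p under 0.05, 6 of the 34 members (17.6%) passed at 4 h, against 31.1% of all genes. At 10 h 12 members (35.3%) did so, against 37.0% of all genes, and at 18 h 14 (41.2%), against 35.5%. At 10 h 5 members were called higher and 1 lower, where 8.21% of all genes were called higher and 16.5% lower. At 18 h 9 members were called higher and 2 lower, against 7.4% and 16.3% of all genes. The median log2 change over the 34 members was -0.04 at 4 h, 0.03 at 10 h and 0.15 at 18 h, and over all genes it was -0.01, 0.01 and 0.00. In all, 14 members were called at 1 or more of the 3 times and 20 at none. Of the 14, 4 were called at both 10 and 18 h (Psma5, Psmb6, Psmd10 and Psmd11), and none at all 3 times. Groups without overlap were common among all genes. At 4, 10 and 18 h every NCFM array lay above every control for 1, 9 and 12 members. Every NCFM array lay below every control for 4, 4 and 5. Over all 18193 genes these counts were 2509, 4222 and 3833 above, and 4130, 5263 and 4747 below.

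These counts depend on the fit and the scale. With the array number as a block, 5 members were called at 4 h (1 higher, 4 lower), 10 at 10 h (8 higher, 2 lower) and 14 at 18 h (12 higher, 2 lower), where 26.8%, 31.1% and 30.5% of all genes were called. On arrays 2 and 3 alone 2 members were called at 4 h, 10 at 10 h and 14 at 18 h, against 25%, 24.4% and 29.8% of all genes. When arrays were instead centred on 18 spike-in probe sets, the median of all genes itself shifted to 0.19, -0.24 and 0.01 at the 3 times. The members' median then was 0.15 at 4 h, -0.23 at 10 h and 0.15 at 18 h, so that its sign turned at 4 and 10 h, and the members called were 4 higher and 0 lower, 1 higher and 7 lower, and 6 higher and 2 lower. Of all genes 18.2% were then called higher and 4.06% lower at 4 h, 3.56% and 34% at 10 h, and 4.65% and 12.5% at 18 h. Over all settings the members' median ranged from -0.11 to 0.15 at 4 h, from -0.23 to 0.22 at 10 h and from 0.068 to 0.25 at 18 h. The directions below are on the deposited scale, that is, relative to the other genes. No called member changed sign under the alternatives tried, but some of these, such as the variance settings and the stricter threshold, leave the log2 change as it is. None read another probe set on its own. Single other probe sets of Psmd11 at 10 h (-0.42) and of Psmc6 at 18 h (-0.17) had the opposite sign.

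**Figure D1:**
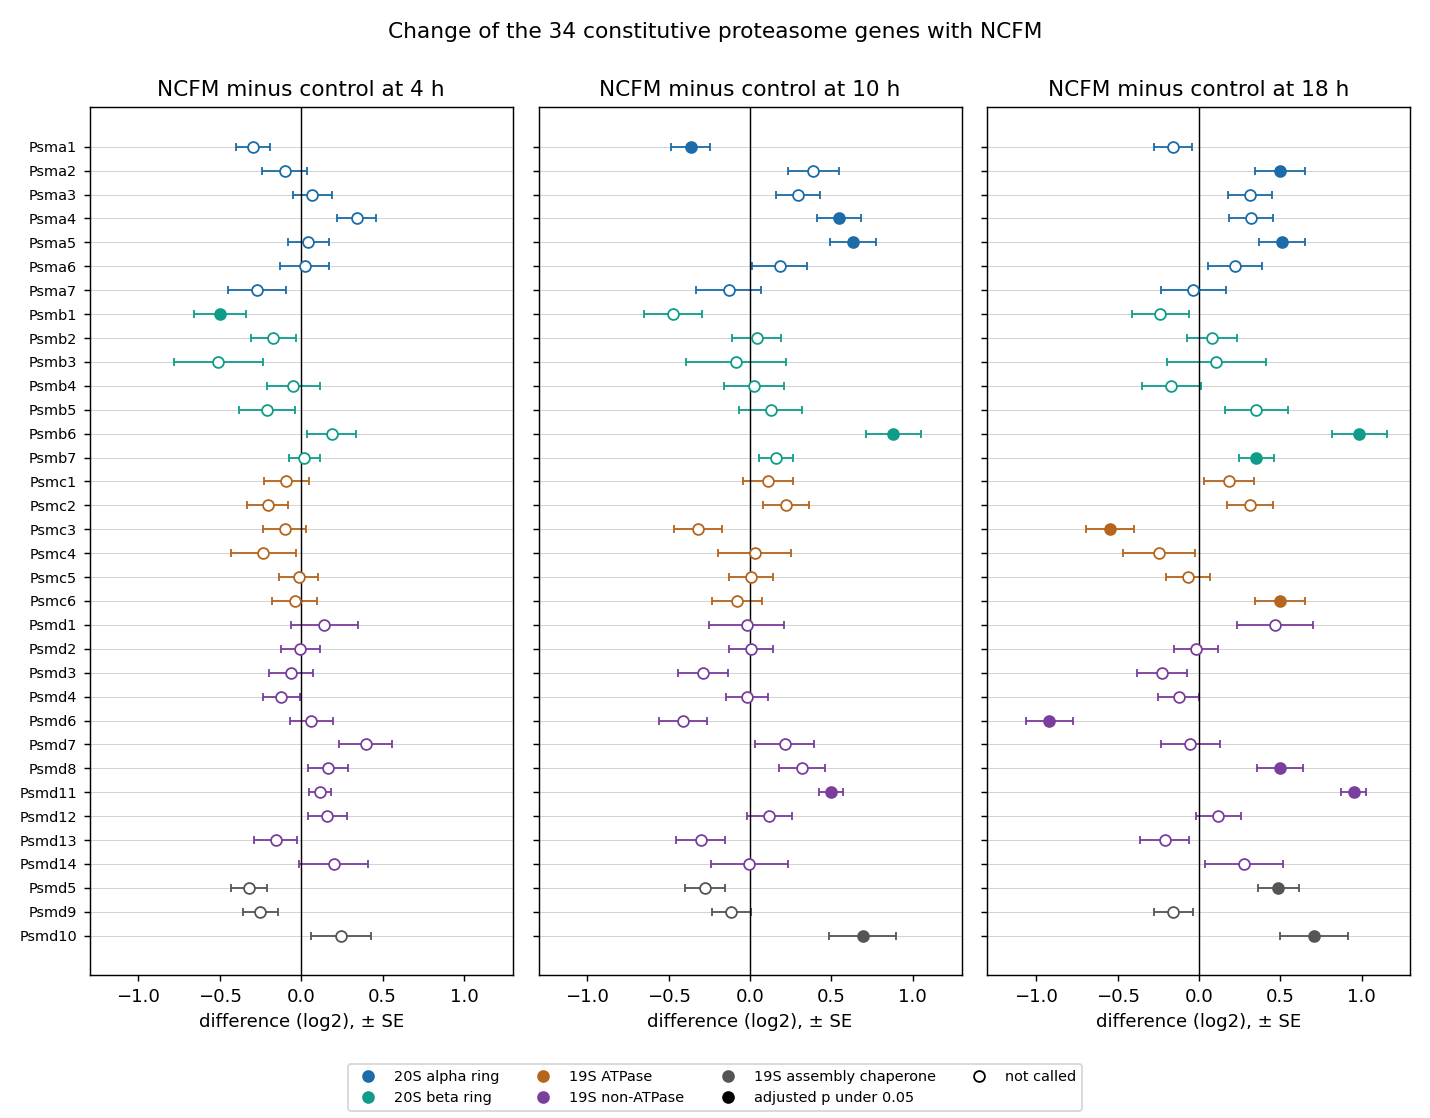
Log2 difference between NCFM and control cells for each of the 34 members (rows, coloured by place in the complex) at 4, 10 and 18 h, with bars of 1 standard error of the limma fit. Filled points were called at an adjusted p under 0.05. Psmb6 and Psmd11 move furthest to the right and Psmd6 furthest to the left at 18 h, while most points stay within 0.5 of 0.

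In the alpha ring, which forms the gate of the barrel, Psma5 rose at 10 and 18 h. Its intensities at 4 h were 3668, 3526 and 3090 in controls and 4111, 3610 and 2954 with NCFM. At 10 h they were 3723 and 3531 against 5679, 5681 and 5503, and at 18 h 3973 and 2954 against 4567, 5178 and 4911. The groups overlapped at 4 h, and every NCFM array lay above every control array at the later times. The change was 1.55-fold at 10 h (log2 0.63 ± 0.14 SE, n = 3 against 2, limma adjusted p = 0.00585) and 1.42-fold at 18 h (0.51 ± 0.14, limma adjusted p = 0.0192). The 18 h call was lost without control array 2 (log2 0.30, adjusted p = 0.232) or NCFM array 2 (0.47, adjusted p = 0.0654), and the 10 h call with spike-in centring (0.38, adjusted p = 0.0779). Between equal numbers at 18 h the difference was 0.20 for arrays 1 and 0.81 for arrays 2.

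The alpha subunit Psma4 rose at 10 h, with intensities of 4399 and 3681 in controls and 6129, 5115 and 6506 with NCFM, a change of 1.46-fold (log2 0.55 ± 0.14, limma adjusted p = 0.0108). All NCFM arrays were above the controls, by 0.48 and 0.47 between equal numbers. Without control 10 h array 2 it was 0.42 (adjusted p = 0.095) and with spike-in centring 0.30 (adjusted p = 0.0812). At 4 h Psma4 was also higher on every NCFM array (4787, 4474 and 5433 against 3776, 3697 and 4109), at 0.34 ± 0.12, which was not called (limma adjusted p = 0.0729) but was with the block (adjusted p = 0.0155).

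Psma2 rose at 18 h, with 4601 and 4088 in controls and 5923, 6326 and 6153 with NCFM, or 1.41-fold (log2 0.50 ± 0.15, limma adjusted p = 0.0347). The groups did not overlap, but with any 1 of the 5 arrays of that time left out the change was 0.41 to 0.58 and no longer called (adjusted p = 0.0533 to 0.204), nor was it with spike-in centring (adjusted p = 0.0761). Psma1 went the other way at 10 h, with 4611 and 3834 in controls and 3839, 2799 and 3240 with NCFM (log2 -0.36 ± 0.12, limma adjusted p = 0.0412). Here the groups overlapped, NCFM array 1 being as bright as control array 2, and the call was lost without control array 1 (-0.23, adjusted p = 0.362), NCFM array 2 (-0.25, adjusted p = 0.135) or NCFM array 3 (-0.36, adjusted p = 0.0954), and with the mean of its probe sets (-0.14, adjusted p = 0.317). Psma3, Psma6 and Psma7 were not called at any time, with changes of 0.30 and 0.31, 0.18 and 0.22, and -0.13 and -0.03 at 10 and 18 h. With the block Psma3 was called at both times (0.35, adjusted p = 0.0232, and 0.37, adjusted p = 0.0187) and Psma6 at 18 h (0.29, adjusted p = 0.0359).

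In the beta ring the catalytic subunit Psmb6, which cuts after acidic residues, had the largest rise of all members at 10 and at 18 h. Its intensities were 2721, 2554 and 2415 in controls and 3062, 3616 and 2233 with NCFM at 4 h. They were 3049 and 2755 in controls and 5269, 5486 and 5265 with NCFM at 10 h, and 2517 and 2865 against 4485, 6041 and 5545 at 18 h. At 4 h NCFM array 3 was the lowest of the 6, while at 10 and 18 h the lowest NCFM array was far above the highest control. Psmb6 was 1.84-fold higher at 10 h (log2 0.88 ± 0.17, n = 3 against 2, limma adjusted p = 0.00259) and 1.98-fold higher at 18 h (0.99 ± 0.17, limma adjusted p = 0.00131). At 4 h the change was 0.19 ± 0.15 and was not called (limma adjusted p = 0.442). It was 0.79 and 0.99 between arrays of equal number at 10 h and 0.83 and 1.08 at 18 h, and it stayed called at both times under all 20 alternative settings tried (log2 0.63 to 0.96 and 0.89 to 1.11), the lowest with spike-in centring at 10 h.

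Psmb7, the catalytic subunit that cuts after basic residues, rose less. At 18 h its intensities were 3570 and 3471 in controls and 4537, 4544 and 4403 with NCFM, a change of 1.28-fold (log2 0.35 ± 0.11, limma adjusted p = 0.032). The groups did not overlap, and the difference was 0.35 and 0.39 between equal numbers, but without any 1 of the 5 arrays its adjusted p was 0.0587 to 0.146 (log2 0.33 to 0.37), and with spike-in centring it was 0.0776. At 4 h Psmb7 had 3975, 3507 and 3585 in controls and 3847, 3922 and 3444 with NCFM, and at 10 h 4204 and 3422 against 4799, 3766 and 4204. Those groups overlapped, with changes of 0.02 ± 0.10 and 0.16 ± 0.11.

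Psmb5, which cuts after hydrophobic residues and is the main target of the drug bortezomib, was not called at any time. Its intensities were 3688, 3019 and 2952 in controls and 3031, 3283 and 2140 with NCFM at 4 h, 3528 and 2985 against 3513, 3745 and 3386 at 10 h, and 3791 and 2777 against 3463, 4533 and 4526 at 18 h. The groups overlapped at each time. The log2 changes were -0.21 (95% interval -0.58 to 0.17), 0.13 (-0.29 to 0.55) and 0.35 (-0.07 to 0.77), so that a change at 18 h as large as that of Psmb7 lies within its interval. At 18 h it was -0.13 between the arrays numbered 1 and 0.71 between those numbered 2.

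Psmb1, a beta subunit without a cutting site, was the 1 member called at 4 h. It had intensities of 3980, 4147 and 4185 in controls and 3429, 3384 and 2112 with NCFM, and was 1.41-fold lower (log2 -0.50 ± 0.16, n = 3 against 3, limma adjusted p = 0.0478). All NCFM arrays were below all controls, but array 3 was far below the other two, at -0.99 against -0.21 and -0.29 between equal numbers. Without NCFM array 3 the change was -0.27 (adjusted p = 0.112), and without control array 1, 2 or 3 it was -0.48 to -0.52 (adjusted p = 0.0839 to 0.123). At 10 h Psmb1 had the lowest change of all members, with 4754 and 4031 in controls and 3691, 3074 and 2773 with NCFM (-0.47), and it was not called there. Much dimmer probe sets of Psmb1 were at 0.55 ± 0.18 and -0.05 ± 0.08 at that time. Another beta subunit without a cutting site, Psmb3, had the lowest value at 4 h, at 4023, 3672 and 2952 in controls and 3313, 3414 and 1336 with NCFM (-0.51 ± 0.27, limma adjusted p = 0.23). It rested on the same array, as the other NCFM arrays lay within the range of the controls. Psmb2 had log2 changes of -0.17, 0.04 and 0.08 and Psmb4 of -0.05, 0.02 and -0.17 at the 3 times, none of them called.

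**Figure D2:**
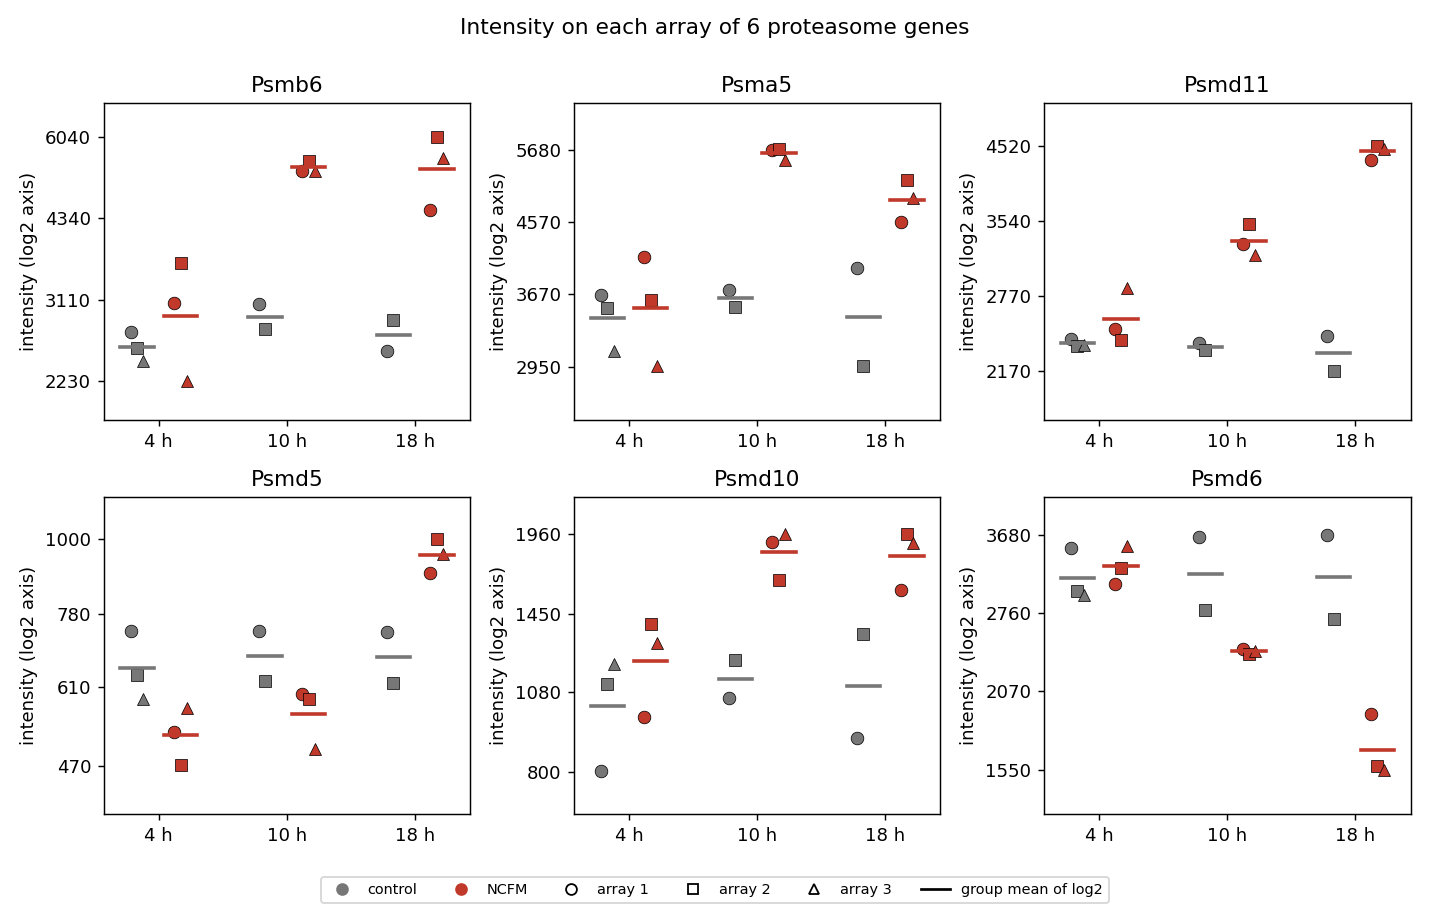
Intensity on each of the 16 arrays (vertical, log2 axis, panels differ in range) at 4, 10 and 18 h for 6 members, controls in grey and NCFM in red, with marker shapes for the array number and a line at the group mean of log2. For Psmb6 and Psmd11 all NCFM points at 10 and 18 h lie above the controls, for Psmd5 they do so at 18 h, and for Psmd6 they lie below.

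The 6 ATPases of the cap, which unfold the substrate and open the core, showed 1 rise and 1 fall at 18 h and no call before. Psmc3 had 1849 and 1491 in controls and 1067, 1154 and 1195 with NCFM, and was 1.46-fold lower (log2 -0.55 ± 0.15, limma adjusted p = 0.0188). The groups did not overlap, with differences of -0.79 and -0.37 between equal numbers. The call was lost without control array 1 (-0.39) or NCFM array 1 (-0.50, adjusted p = 0.0514), and with quantile normalization. Psmc6 had 1594 and 1387 in controls and 2353, 2112 and 1857 with NCFM, and was 1.41-fold higher (0.50 ± 0.15, limma adjusted p = 0.0344). All NCFM arrays were above the controls, but a second probe set of Psmc6 did not rise (-0.17 ± 0.15), and with the mean of its probe sets the change was 0.06 (adjusted p = 0.812). Without NCFM array 1 or 2 or control array 1 or 2 it was 0.40 to 0.60 (adjusted p = 0.052 to 0.217). All 6 ATPases had slightly lower means with NCFM at 4 h, from -0.01 to -0.23, none of them called. With the block Psmc4 was called at 4 h (-0.23, adjusted p = 0.0228), and Psmc2 was at 10 h (0.27, adjusted p = 0.023) and 18 h (0.36, adjusted p = 0.00538), where it had 2752 and 2291 in controls and 3275, 3067 and 3018 with NCFM.

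Among the other cap subunits Psmd11 and Psmd6 moved in opposite directions. Both belong to the lid, the part of the cap that holds the deubiquitinase Psmd14, and Psmd11 is known for stabilising the joining of cap and core. Psmd11 had 2408, 2349 and 2361 in controls and 2487, 2397 and 2846 with NCFM at 4 h. Its intensities were 2376 and 2318 in controls and 3281, 3507 and 3169 with NCFM at 10 h, and 2434 and 2171 against 4327, 4524 and 4482 at 18 h. The controls stayed in a narrow band while the NCFM arrays were higher at each later time. The change was 0.12 ± 0.07 at 4 h (not called), 1.41-fold at 10 h (log2 0.50 ± 0.08, limma adjusted p = 0.000555) and 1.93-fold at 18 h (0.95 ± 0.08, limma adjusted p = 7.25e-06). Between equal numbers it was 0.47 and 0.60 at 10 h and 0.83 and 1.06 at 18 h. The 18 h call held under all 20 alternative settings tried, the lowest of which was the mean of the probe sets (0.33), and the 10 h call was lost with spike-in centring (0.25, adjusted p = 0.0761) and with the mean of the probe sets (0.15, adjusted p = 0.072).

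Psmd6 had 3514, 2997 and 2954 in controls and 3069, 3261 and 3541 with NCFM at 4 h, where the groups overlapped. At 10 h the intensities were 3653 and 2789 against 2423, 2371 and 2398, and at 18 h 3681 and 2703 against 1905, 1573 and 1549. All NCFM arrays were below all controls at both later times. Psmd6 was 1.89-fold lower at 18 h (log2 -0.92 ± 0.15, n = 3 against 2, limma adjusted p = 0.000825), which held under all 20 alternative settings tried (-1.14 to -0.70), and by -0.95 and -0.78 between equal numbers. At 10 h it was -0.41 ± 0.15, which was not called, but was with the block (-0.40, adjusted p = 0.0251).

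Psmd8, also of the lid, rose 1.41-fold at 18 h (log2 0.50 ± 0.14, limma adjusted p = 0.0216), with 5595 and 4069 in controls and 6118, 7212 and 6939 with NCFM. Control array 1 was close to NCFM array 1, with a difference of 0.13 between them against 0.83 for arrays 2. Without control array 2 the change was 0.27 (adjusted p = 0.263), and without NCFM array 2 or 3 it was 0.45 (adjusted p = 0.0734) or 0.48 (adjusted p = 0.0583). Psmd7, a lid subunit that pairs with the deubiquitinase, had the highest value of all members at 4 h, with 650, 544 and 530 in controls and 625, 726 and 941 with NCFM (0.40 ± 0.16, limma adjusted p = 0.117). These groups overlapped, as control array 1 was above NCFM array 1. Psmd7 was called at 4 h with quantile normalization (0.52, limma adjusted p = 0.043), spike-in centring (0.59, adjusted p = 0.0241) and array weights (0.41, adjusted p = 0.0139). On arrays 2 and 3 alone it was at 0.62. The other 7 subunits of this group, among them the scaffold subunits Psmd1 and Psmd2, the ubiquitin receptor Psmd4 and the deubiquitinase Psmd14, were not called at any time in the fit on all arrays. Psmd2 had log2 changes of 0.00, 0.01 and -0.02. Psmd1 had 1311 and 698 in controls and 1109, 1437 and 1454 with NCFM at 18 h (0.47), with -0.24 between arrays 1 and 1.04 between arrays 2. Without control array 1 it was 0.92, and on arrays 2 and 3 alone 1.05. Both values rest on control array 2 (698) as the only control of that time. The controls of the earlier times had 1128 to 1419 at 4 h and 1084 to 1397 at 10 h. Psmd14 had 2929 and 1716 in controls and 2711, 2758 and 2675 with NCFM at 18 h (0.28), control array 2 being far below the rest. On arrays 2 and 3 alone, with control array 2 as the only control, Psmd14 was at 0.66.

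The 3 chaperones that assemble the base of the cap, which leave before it is complete, did not move alike. Psmd10, also known as gankyrin, rose at 10 and 18 h. It had 802, 1112 and 1201 in controls and 983, 1393 and 1301 with NCFM at 4 h, 1054 and 1217 against 1903, 1644 and 1957 at 10 h, and 909 and 1345 against 1588, 1956 and 1893 at 18 h. The groups overlapped at 4 h and not later. The rise was 1.62-fold at 10 h (log2 0.69 ± 0.21, limma adjusted p = 0.0292) and 1.63-fold at 18 h (0.71 ± 0.21, limma adjusted p = 0.0272). Between equal numbers it was 0.85 and 0.43 at 10 h and 0.80 and 0.54 at 18 h. On arrays 2 and 3 alone, with control array 2 as the only control, it was 0.56 and 0.52. Psmd10 is X-linked and was lower on the arrays numbered 1 (mean -0.32), which hold a larger share of these controls than of the NCFM arrays. The part of this in the rise was not tested. The 10 h call was lost without control array 1 (0.59, adjusted p = 0.204), control array 2 (0.80, adjusted p = 0.0566), NCFM array 1 (0.66, adjusted p = 0.0619) or NCFM array 3 (0.64, adjusted p = 0.0859), and with spike-in centring (0.44, adjusted p = 0.137). The 18 h call was lost without control array 1 (0.42, adjusted p = 0.235), NCFM array 2 (0.65, adjusted p = 0.0842) or NCFM array 3 (0.67, adjusted p = 0.0705), and with spike-in centring (0.71, adjusted p = 0.0507).

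Psmd5 was low early and high late. It had 735, 636 and 587 in controls and 526, 471 and 569 with NCFM at 4 h, 735 and 623 against 596, 587 and 498 at 10 h, and 733 and 620 against 891, 999 and 951 at 18 h. Every NCFM array was below every control at 4 and 10 h and above every control at 18 h. The change was -0.32 ± 0.11 at 4 h and -0.28 ± 0.12 at 10 h, neither called, and 1.40-fold higher at 18 h (log2 0.49 ± 0.12, limma adjusted p = 0.0135). With the block the 4 h fall was called (-0.32, adjusted p = 0.0425), and without control array 2 the 18 h rise was not (0.37, adjusted p = 0.139). The third chaperone, Psmd9, was not called at any time, with changes of -0.25, -0.12 and -0.16.

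Whether the response differed between times was tested in the same fit. Between 4 and 10 h no member's response differed at an adjusted limma p under 0.05, where 0.506% of all genes were called. At an unadjusted p under 0.05, 6 of 34 members (17.6%) and 10.5% of all genes passed. With the block 1 member passed (2.51% of all genes), and with spike-in centring 8 did, all with a lower response at 10 h, where 52.5% of all genes were called and their median moved by -0.44. Between 4 and 18 h 3 members passed, where 3.4% of all genes did. The response of Psmd6 was lower at 18 h by a log2 difference of -0.98 ± 0.20 (limma adjusted p = 0.019), that of Psmd11 was higher by 0.84 ± 0.10 (limma adjusted p = 0.0019), and that of Psmd5 was higher by 0.81 ± 0.17 (limma adjusted p = 0.0214). For Psmb6 the difference was 0.80 ± 0.23, which was not called (limma adjusted p = 0.0814). With the block 7 members passed (9.15% of all genes), and on arrays 2 and 3 alone 6 did (8.76%).

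Within the NCFM cells, 4 members were higher at 10 h than at 4 h: Psmb6 by 0.87 ± 0.15 (limma adjusted p = 0.00522), Psma5 by 0.67 ± 0.12 (0.00756), Psma2 by 0.55 ± 0.14 (0.0364) and Psmd11 by 0.37 ± 0.07 (0.00705). No member was lower, and 6.28% of all genes were called in either direction. Between 10 and 18 h 2 members were higher, Psmd5 by 0.76 ± 0.11 (limma adjusted p = 0.00473) and Psmd11 by 0.42 ± 0.07 (0.00692), where 2.79% of all genes were called. With the block 8 and 6 members were called, where 12.6% and 7.23% of all genes were. The rises of Psma2, Psmb6 and Psma5 from 4 to 10 h are larger for NCFM 4 h array 3, the lowest of its group. There Psma2 had 3153 against 4983 and 4751, Psmb6 2233 against 3062 and 3616, and Psma5 2954 against 4111 and 3610. For Psmd11 that array was the highest (2846 against 2487 and 2397). From 4 to 10 h the call of Psma2 was lost without any 1 of the NCFM 10 h arrays (log2 0.52 to 0.57, adjusted p = 0.061 to 0.133) and with spike-in centring (0.30, adjusted p = 0.137). That of Psmd11 was lost with spike-in centring (0.11, adjusted p = 0.301), with the mean of its probe sets (0.12, adjusted p = 0.202) and on arrays 2 and 3 alone (0.35, adjusted p = 0.0512). From 10 to 18 h that of Psmd11 was lost with the mean of its probe sets (0.16, adjusted p = 0.134). In control cells no member differed between 4 and 18 h by limma, nor did any gene (0% of 18193). At an unadjusted p under 0.05, 0 members and 3.07% of all genes passed.

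Several probe sets of one gene gave a check on these values. The 34 members had 72 probe sets, 19 members had more than 1 and 15 had 1, and the one with the highest mean was used. Of the 11 members called at 18 h, 4 had another probe set with a mean intensity of at least 250, and 6 of the 7 such probe sets had the sign of the one used. By gene this held for 3 of the 4, and not for Psmc6. Most of the 7 are of Psmd11, and some of these were near 0 (0.11 ± 0.09 and 0.10 ± 0.06). Both probe sets of Psmd6 fell at 18 h, by 0.92 and 0.98 on the log2 scale. The second of Psma5 was higher by 0.62 ± 0.10 at 10 h and 0.73 ± 0.10 at 18 h. For Psmd11 the brightest and a dimmer probe set were both higher at 10 h (0.50 and 0.55) and 18 h (0.95 and 0.87), while another one was at -0.42 ± 0.10 at 10 h and 0.37 ± 0.10 at 18 h. The other 5 of the 8 lay between -0.13 and 0.35 at 10 h and between 0.01 and 0.11 at 18 h.

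**Figure D3:**
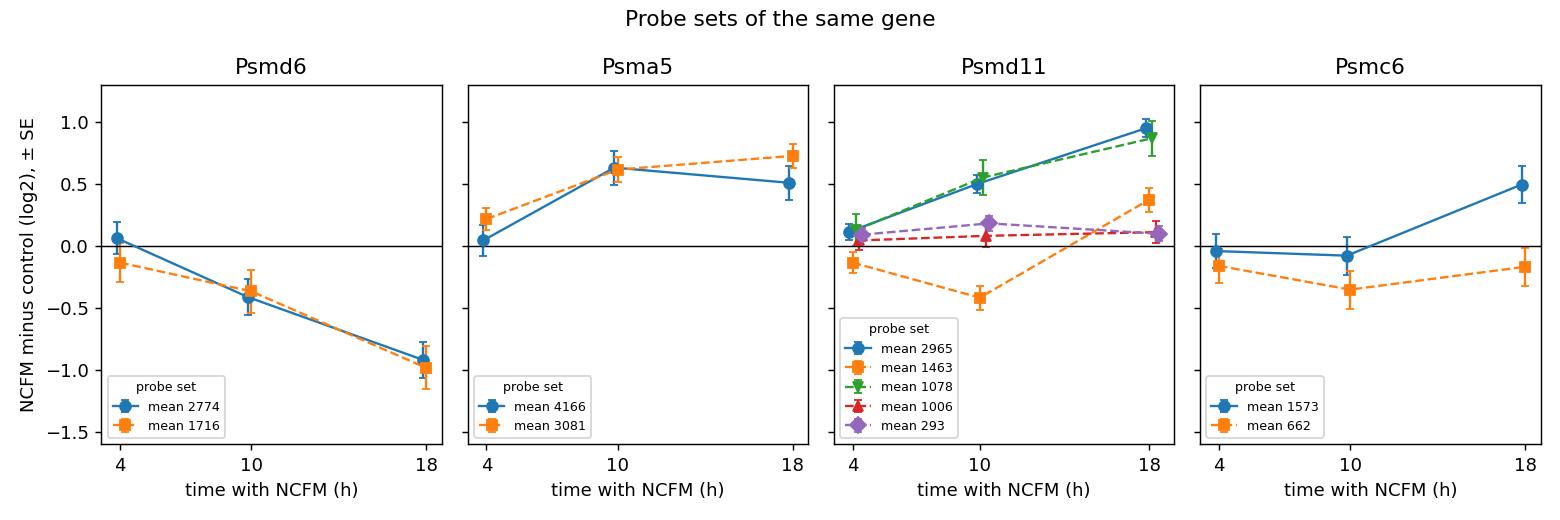
Log2 difference between NCFM and control at each time for the probe sets of 4 members with a mean intensity of at least 250, with bars of 1 standard error. The solid line is the probe set used, and the legend gives each mean intensity over 16 arrays. The lines of Psmd6 and of Psma5 run close together, those of Psmd11 spread from 0.10 to 0.95 at 18 h, and those of Psmc6 part at 18 h.

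The rest of the pathway was read from lists of its parts. Beside the counts below, 5.27%, 8.21% and 7.4% of all genes were called higher at 4, 10 and 18 h. The shares called lower were 13.1%, 16.5% and 16.3%. All 3 inducible catalytic subunits, which replace Psmb6, Psmb7 and Psmb5 in the immunoproteasome, were called higher at 10 and 18 h. Psmb9, the counterpart of Psmb6, had 2302 and 2549 in controls and 7337, 6074 and 6531 with NCFM at 10 h, or 2.74-fold (log2 1.45 ± 0.15, limma adjusted p = 3.8e-05), and 2.24-fold at 18 h (1.16 ± 0.15). Psmb10, the counterpart of Psmb7, was 2.62-fold higher at 10 h (1.39 ± 0.22) and 1.72-fold at 18 h (0.78 ± 0.22). Psmb8, the counterpart of Psmb5, was 1.79-fold higher at 10 h (0.84 ± 0.13) and 1.69-fold at 18 h (0.75 ± 0.13). At 4 h Psmb8 and Psmb9 were already called higher, at 0.37 ± 0.12 and 0.72 ± 0.13. In each pair the inducible subunit had the larger value at each time, though the difference within a pair was not tested.

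**Figure D4:**
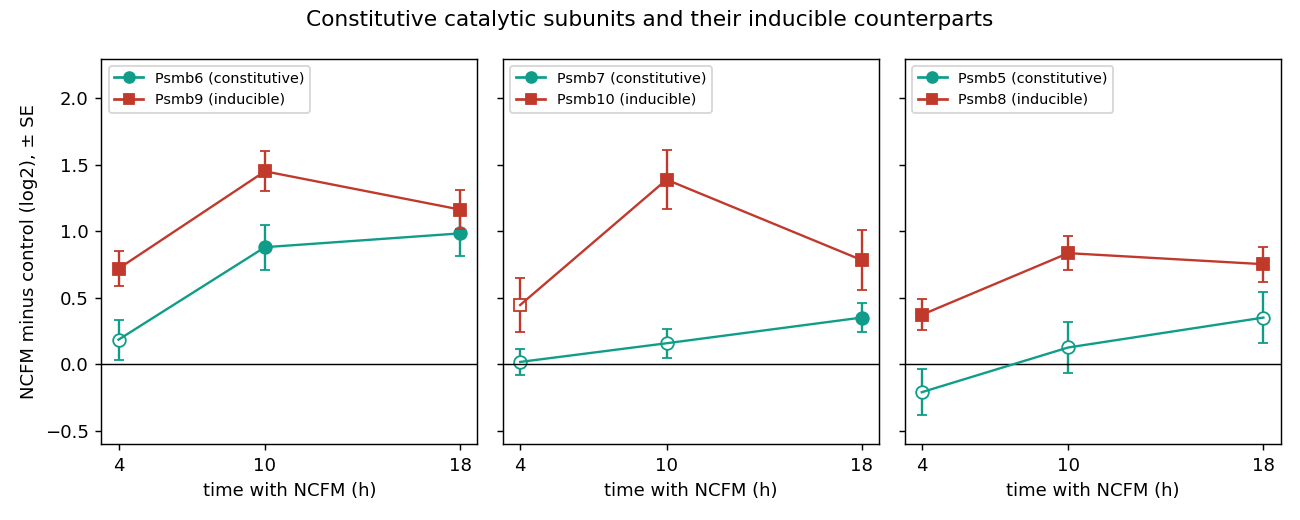
Log2 difference between NCFM and control (vertical) against time with NCFM for the 3 constitutive catalytic subunits (green circles) and their inducible counterparts (red squares), with bars of 1 standard error. Filled points were called at an adjusted p under 0.05. The red line is above the green in each panel, and the gap is narrowest for Psmb6 and Psmb9 at 18 h (0.99 and 1.16).

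Of the activator caps and their inhibitor, 4 of 5 genes were measured. Psme1, a subunit of the interferon-induced activator ring, was called higher at all 3 times (log2 0.31, 0.89 and 0.78), while Psme3, the nuclear activator, was called lower at 10 h (-1.09 ± 0.23) and 18 h (-0.96 ± 0.23). Psme3 had 1422 and 692 in controls at 10 h and 489, 464 and 445 with NCFM. Psme4 was called higher at 10 h (0.79 ± 0.24) and not at 18 h (0.55 ± 0.24), and the inhibitor Psmf1 was not called.

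Of the chaperones that build the 20S core, 5 of 6 were measured, and 2 were called lower at 10 and 18 h with none higher. Psmg1 had 1146 and 855 in controls and 479, 458 and 408 with NCFM at 10 h (log2 -1.15 ± 0.18, limma adjusted p = 0.000651), and -1.20 ± 0.18 at 18 h. Its partner in assembling the alpha ring, Psmg2, had 1122 and 753 in controls and 389, 329 and 331 with NCFM at 18 h (-1.40 ± 0.20, limma adjusted p = 0.000371), and -0.92 ± 0.20 at 10 h. The NCFM arrays of both genes lay below the controls. Psmg3, Psmg4 and the beta ring chaperone Pomp were not called.

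Of other proteasome-bound factors, 7 of 8 were measured, with 1 called higher at 4 h, 1 at 10 h, and 2 higher and 1 lower at 18 h. Zfand5, which binds and activates the proteasome, was called higher each time (log2 0.56, 0.59 and 0.91), Ecpas, an adaptor of the cap, at 18 h (0.57), and the deubiquitinase Uchl5 was lower at 18 h (-0.73). Of 5 regulators of proteasome gene transcription, 4 were measured. The main activator Nfe2l1 was not called (0.24, 0.24 and 0.03), nor was Nfe2l2. Ngly1, the deglycosylase that Nfe2l1 needs for its activation, was called lower at each time, by -0.52 ± 0.13, -0.80 ± 0.15 and -0.93 ± 0.15. Stat3 was called higher at 10 h (0.77 ± 0.23) and 18 h (0.82 ± 0.23). Of 9 shuttle and segregase factors, 8 were measured, with 1 called lower at 4 h and 2 at both later times, namely Ubqln2 (-0.67, -0.72 and -0.99) and, at 10 and 18 h, Ubqln4 (-0.61 and -0.60). None of the 4 ubiquitin genes had a probe set that names a single gene.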

How the data were processed

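The 16 single-channel arrays fall into 6 groups, taken from the labels. The authors deposited 1 linear intensity per probe set, whole numbers from 42 to 31573 with array medians of 162 to 167. Their summarisation, background correction and normalization are not stated in any source used here. Of 45101 probe sets, 34945 name 1 gene, 932 several and 64 are control probe sets, while 9160 have no entry in the probe table. Intensities were taken to log2, and the probe set with the highest mean log2 stood for each of 18193 genes. Group means were fitted with limma 3.58.1 in R 4.3.3 (lmFit, eBayes, 10 residual degrees of freedom), two-sided, with Benjamini-Hochberg adjustment over all genes and calls at an adjusted p under 0.05. Errors are the fit's standard errors and intervals are 95%. The script was tested on simulated data. Figures used Python 3.11.15 and matplotlib 3.10.9.

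The members and gene lists were chosen with earlier results of these data known. All members may be named, and full values go to called members, the largest changes and the 3 catalytic subunits. Equal array numbers deviated together in all 36 same-number pairs (correlation of deviations from group means 0.19 to 0.75, median 0.42), though in groups of 2 the deviations mirror each other. The main fit has no block, and the block is an alternative, beside other normalizations, spike-in centring, probe set rules, background subtraction, variance settings, thresholds and each array left out. The fit on arrays 2 and 3 alone, and the block without NCFM 4 h array 3, were chosen after seeing the data. In the first, groups with 1 array are assumed to vary like the others.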

Additional observations from a re-analysis of the deposited data

Results flagged for a closer look

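The response of 3 members to NCFM differed between 4 and 18 h by the test of the difference itself (limma, adjusted over all genes). Psmd6 differed by -0.98 (log2, SE 0.20, adjusted p = 0.019), with all NCFM arrays below the controls at 18 h and overlapping groups at 4 h. Psmd11 differed by 0.84 (SE 0.10, adjusted p = 0.0019), its NCFM arrays being above all controls at 18 h. Psmd5 differed by 0.81 (SE 0.17, adjusted p = 0.0214), with all 3 NCFM arrays below the controls at 4 h and above them at 18 h. The calls of Psmd6 and Psmd5 were lost without some single arrays. For Psmd6 these were NCFM 18 h array 2 (-0.94, adjusted p = 0.0561), control 4 h array 2 (-0.95, adjusted p = 0.0555), control 4 h array 3 (-0.94, adjusted p = 0.0514) and control 18 h array 1 (-0.76, adjusted p = 0.0696). For Psmd5 they were NCFM 18 h array 2 (0.77, adjusted p = 0.0634), control 4 h array 2 (0.82, adjusted p = 0.0519) and control 18 h array 2 (0.69, adjusted p = 0.0794), and with spike-in centring its adjusted p was above the threshold as well. Psmd11 kept its call without each single array and lost it with the mean of its probe sets (0.27, adjusted p = 0.0812).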

How the results depend on the processing

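The number of arrays, 2 or 3 a group, limits these results. The dimmest member value was 308, where the lower quartile of an array was 104 to 108. No called member reversed its sign in any setting, though some settings cannot change a log2 value and none read another probe set on its own. Calls of Psmb6 at 10 and 18 h, and of Psmd6 and Psmd11 at 18 h, held in all 20 settings tried for them. Other calls were lost in settings not named beside them. With only the groups compared these were Psma1 and Psma4 at 10 h, and Psma5, Psmc6, Psmd8 and Psmd10 at 18 h. With an intensity trend and robust variance they were Psma1 at 10 h, and Psma2, Psmb7 and Psmc6 at 18 h. Within NCFM cells both settings lost Psma2 and Psmd11 from 4 to 10 h. The first also lost Psmb6 there, and the second lost Psmd11 from 10 to 18 h. From 4 to 10 h quantile normalization lost Psma2. The fit on arrays 2 and 3 alone lost Psmb1 at 4 h (log2 -0.64), Psma1 at 10 h (-0.35) and Psma2 at 18 h (0.61), with control array 2 as the only control at 10 and 18 h.

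Against 1 member called at 4 h, 3 were called with quantile normalization, 4 with spike-in centring, 2 with the mean over probe sets of a gene, 5 with array weights and 5 with the replicate block. None (0) was called with median centring, with every probe set tested, with background subtraction, with an intensity trend and robust variance, with only the groups compared, or at an adjusted p under 0.01. The fits on arrays 2 and 3 alone and on the block without NCFM 4 h array 3 gave 2 each. Against 6 members at 10 h, array weights gave 11, the replicate block 10, arrays 2 and 3 alone 10, the block without NCFM 4 h array 3 gave 11, and an adjusted p under 0.01 gave 3. Against 11 at 18 h, only the groups compared gave 7 and an adjusted p under 0.01 gave 3. The members' median with spike-in centring was 0.15 at 4 h and -0.23 at 10 h, and on arrays 2 and 3 alone it was 0.16 at 10 h. At 18 h it ran from 0.068 without control array 2 to 0.25 with quantile normalization, and was 0.24 on arrays 2 and 3 alone.

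For the difference between 4 and 10 h, with 0 called, spike-in centring gave 8, array weights 1 and the replicate block 1. For that between 4 and 18 h, with 3 called, the block gave 7, arrays 2 and 3 alone 6, the block without NCFM 4 h array 3 gave 5, and an adjusted p under 0.01 gave 1. Within NCFM cells from 4 to 10 h, with 4 called, spike-in centring gave 7, the block 8, arrays 2 and 3 alone 10, and the intensity trend and only the groups compared 2 each. From 10 to 18 h, with 2 called, array weights, the block, the block without NCFM 4 h array 3, and arrays 2 and 3 alone gave 6 each, and the intensity trend 1. Where the block or the scaling moved a count, the cause was not tested.

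Leaving out 1 array at a time gave 0 to 1 calls at 4 h, the 1 being lost without NCFM array 3 or any control array. At 18 h it gave 5 to 8, with 5 without NCFM array 2 or control array 2, and 7 without NCFM array 3 or control array 1. It gave 1 to 4 for the difference between 4 and 18 h, with 1 without NCFM 18 h array 2 or control 4 h array 2. The members' median at 10 h ranged from -0.092 without control array 2 to 0.22 without control array 1. Where this left a group with 1 array, its spread was taken to equal that of the others.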
